A study of Mus musculus with 16 samples.

Results

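The 31 genes described here code for enzymes and regulators of cholesterol and fatty acid synthesis. They were taken from a fixed list of gene symbols, which were matched through the mouse annotation GENCODE M39 to the Ensembl identifiers of the deposited count tables. All 31 were found among the 21959 genes listed, and all 31 were among the 13968 genes that passed the filter on low counts and were tested. By role, 6 belong to the mevalonate pathway, 9 to the squalene and sterol steps, 4 are regulators or transport sterols, 6 make fatty acids, and 6 elongate or desaturate them. The first 15 are called the cholesterol enzymes below, and the last 12 the fatty acid enzymes.

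Cholesterol is built from acetyl-CoA through mevalonate, isoprenoids, squalene and lanosterol, and fatty acids are built from the same acetyl-CoA through malonyl-CoA. Genes of both pathways are transcribed by the sterol regulatory element-binding proteins, which are held in the endoplasmic reticulum by Scap and the Insig proteins when sterols are plentiful and are released when sterols are scarce. The liver is a main site of both syntheses, and proliferating tumor cells also make sterols and fatty acids for their membranes.

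Tumor tissue was taken from liver metastases of 16 mice, 4 in each of 4 groups. All were male wild-type C57BL/6 mice, 6 weeks old when MC38 cells, a mouse colon adenocarcinoma line, were injected into the lower part of the spleen, from which the cells seed the liver. The control mice received PBS. The SB525334 group was given an inhibitor of the type I TGF-β receptor (ALK5) in CMC-Na at 20 mg/kg by oral gavage every day, the KN046 group a bispecific antibody to PD-L1 and CTLA-4 at 10 mg/kg by intraperitoneal injection 2 times a week, and the combination group both agents. The tissue is a mixture of tumor, stromal and host liver cells, and MC38 is a single line. Comparisons of each treatment with control ask how far these genes differ after either agent or both. The 3 comparisons with control share the same 4 control mice.

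The libraries held 18368994 to 23877131 counted reads, and the levels below are CPM, the counts of a gene relative to the library total on edgeR's TMM scale. Control mice 1 and 2, and control mice 3 and 4, differed less than any other mice within a group (median chi-square per gene 1.26 and 0.957, against at least 2.82), although they still differed by more than sampling noise, so results that rest on the control group are also given with each pair merged into 1 sample. The sources used here do not say how each library relates to a mouse beyond its title, so p-values measure the spread between these samples, which may be technical, and each sample is called a mouse below. The summed level of 15 hepatocyte genes was 15415 to 18206 CPM in the control group, 414 to 2023 CPM after SB525334, 9214 to 19197 CPM after KN046 and 14.1 to 23.3 CPM after the combination. All 15 were called lower after SB525334 and after the combination and 0 after KN046. In the combination group 9 of the 15 averaged under 1 CPM and Serpina1c was at 0. In bulk tissue, fewer hepatocytes and less RNA per hepatocyte cannot be told apart. Of 8 epithelial genes, Krt8 averaged 83.3 CPM in the control group and 0.27 CPM in the combination group, and Krt18 86.0 and 0.335 CPM. Epcam averaged 2.60 and 0.367 CPM, while Cdh1 averaged 20.5 and 9.50 CPM and Krt19 3.39 and 1.81 CPM. Cldn4, Vil1 and Krt20 were under 1 CPM in every group. The summed range of the 8 genes was 150.0 to 249 CPM in controls, 37.3 to 51.4 CPM after SB525334, 124 to 202 CPM after KN046 and 6.55 to 16.3 CPM after the combination. Krt8 and Krt18 made up most of the control sum, and the part of tumor and of liver cells in it was not tested. The sum of 10 proliferation genes was 2193 to 2374 CPM in the control group, 1985 to 2355 CPM after SB525334, 2201 to 2409 CPM after KN046 and 1964 to 2106 CPM after the combination. From the control to the combination group, Mki67 averaged 368 and 142 CPM, Top2a 731 and 646 CPM, and Bub1 70.1 and 64.7 CPM. The other genes of this list averaged higher in the combination group. The median gene was at 108% of control after SB525334, 108% after KN046 and 106% after the combination.

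The stretches of the genes' upstream DNA that hold a sterol regulatory element are shown because that motif is the recognition sequence of the transcription factors named above. The search covered the 250 bases before the start of each gene's canonical transcript on both strands of GRCm39, with the annotation GENCODE M39. The letters TCACNCCAC were found for 4 of the 31 genes (12.9%), against 158 of 13955 tested genes with such a window (1.13%). The list was made of genes from pathways that these factors transcribe, so the difference in share is not a result of these data. The 4 genes were Hmgcs1, which makes HMG-CoA, Fasn, the fatty acid synthase, Acaca, the acetyl-CoA carboxylase that makes malonyl-CoA, and Acss2, which makes acetyl-CoA from acetate and held the motif at 2 places. Each line gives 29 bases, 5′ to 3′ on the gene's strand, with the motif in capitals.

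Hmgcs1, chr13:120151740-120151768, plus strand: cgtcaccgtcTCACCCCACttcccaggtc
Fasn, chr11:120715063-120715091, minus strand: cgcgcgggcaTCACCCCACcggcggcggc
Acaca, chr11:84063840-84063868, plus strand: acaggcacacTCACACCACaccctgggtg
Acss2, chr2:155359619-155359647, plus strand: cctaacttggTCACTCCACagccttgcct
Acss2, chr2:155359672-155359700, plus strand: ctacaccccaTCACTCCACgggcccgcct

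The motif began 232 bases before the start in Hmgcs1, 146 bases before it in Fasn, 98 bases before it in Acaca, and 239 and 186 bases before it in Acss2. The Hmgcs1 stretch lies in an exon of the gene model Gm60502, the Fasn and Acss2 stretches in untranslated exons of longer transcripts of the same genes, and the Acaca stretch in an intron of a longer Acaca transcript. The bases before the Acaca motif are largely repeats of the letters CA, and this match may be part of that repeat. Of the other motifs searched, CCAAT, the site of the factor NF-Y, was found before 17 of the 31 genes (54.8%) against 35.9% of the tested genes, and CACGTG, the E-box, before 4 (12.9%) against 7.39%. CCAAT stood before 4 of the 6 mevalonate genes, 7 of the 9 squalene and sterol genes, 3 of the 4 regulators, 1 of the 6 fatty acid synthesis genes and 2 of the 6 elongation and desaturation genes. A match is a description of these letters, not of a factor bound there.

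Per kilobase of canonical transcript, the scale on which different genes can be compared, the highest mean levels in the control group were those of Scd1 (197 ± 109 CPM per kb, SD, n = 4) and Scd2 (120 ± 8.81), which introduce the first double bond into saturated fatty acyl-CoA. Acly, which makes cytosolic acetyl-CoA from citrate, followed at 85.9 ± 4.15 CPM per kb, then the regulator Srebf2 at 73.5 ± 2.99 and squalene epoxidase, Sqle, at 70.6 ± 15.3. Of these neighbours, Scd1 and Scd2 overlapped between mice, and so did Srebf2 and Sqle. The lowest were Fdps (6.00 ± 2.00 CPM per kb) and Hsd17b7, a sterol ketoreductase (6.04 ± 1.80), followed by Acss2, Mvk and Thrsp at 6.82 to 7.46, whose SDs overlapped. The place of Fdps is uncertain, since 76.5% of the 32-base windows of its canonical transcript occur elsewhere in the genome.

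**Figure D1:**
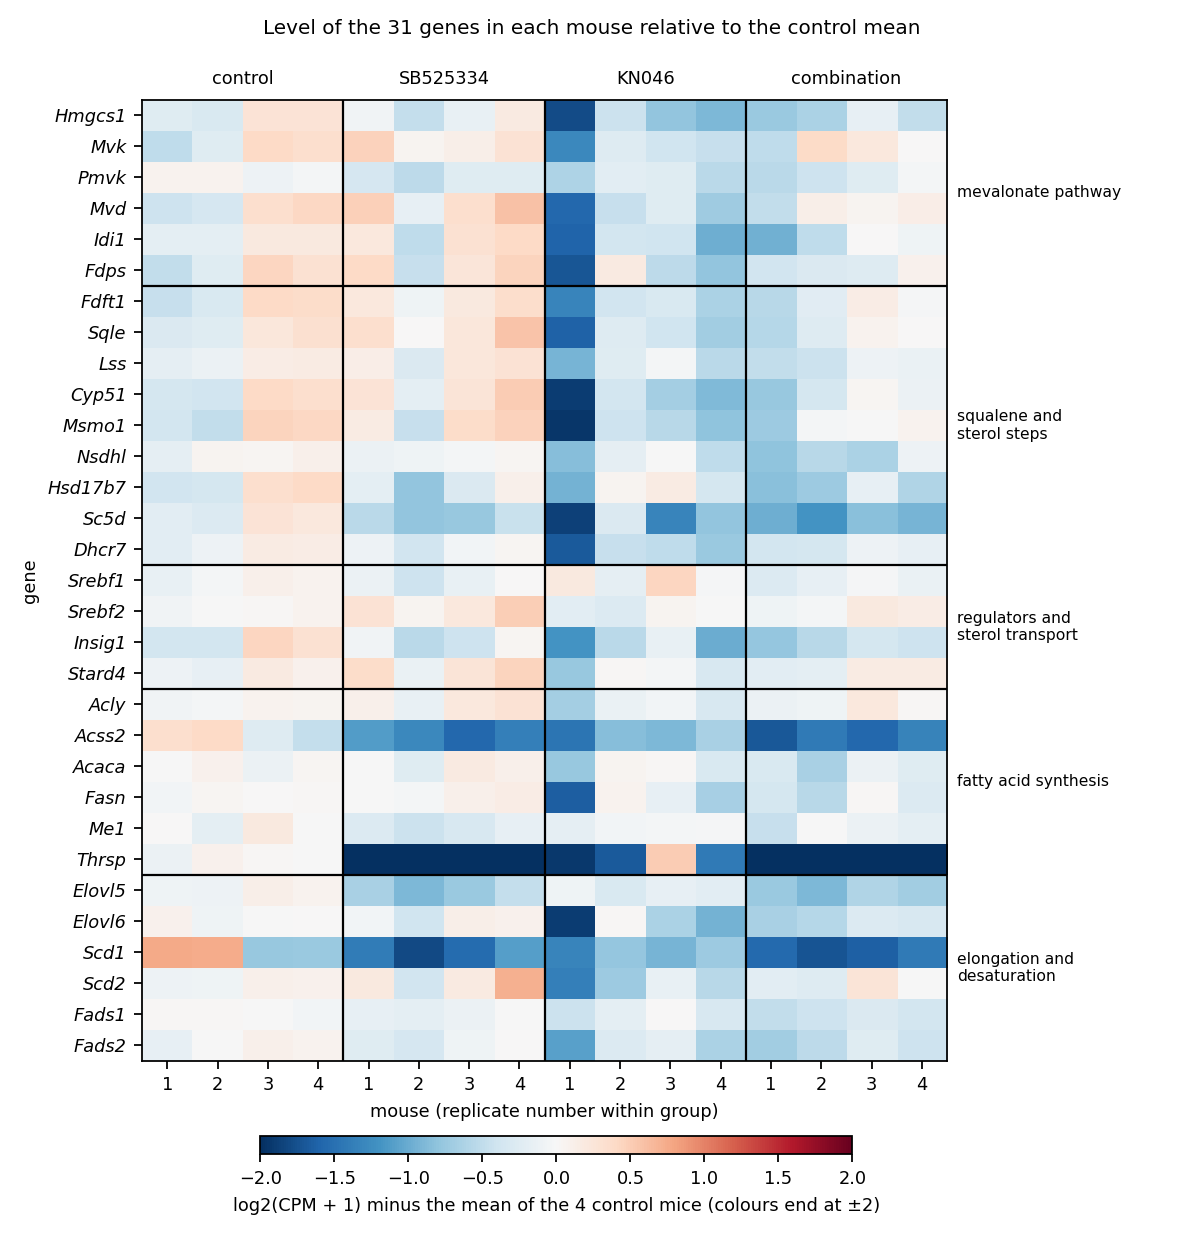
Level of each of the 31 genes (rows, in 5 role groups) in each of the 16 mice (columns, 4 groups of 4), as log2(CPM + 1) minus the mean of the 4 control mice. KN046 mouse 1 is the darkest blue column, Thrsp is lowest in the SB525334 and combination groups, and control mice 3 and 4 are redder than mice 1 and 2 in most cholesterol enzymes.

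In the colour map of all 31 genes by mouse, the cholesterol enzymes were mostly high or low together in a mouse, and Thrsp, Acss2 and Scd1 stood apart from the rest. The median cholesterol enzyme averaged 108% of its control mean after SB525334, 61.2% after KN046 and 81.7% after the combination. For the fatty acid enzymes, the corresponding medians were 90.5%, 71.1% and 74.7%. The lowest mouse of each treated group was largely shared across the cholesterol enzymes. The share of all tested genes for which each mouse was lowest or highest was not computed. Whether this order is particular to these enzymes was therefore not tested. KN046 mouse 1 was the lowest of its group for 15 of 15 cholesterol enzymes, SB525334 mouse 2 for 14 and combination mouse 1 for 14, while SB525334 mouse 4 was the highest of its group for 14.

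A gene was called when its adjusted p from edgeR's quasi-likelihood test was under 0.05. After SB525334, compared with control, 0 of the 31 genes were called higher, where 0.394% of all tested genes were, and 4 were called lower (Thrsp, Acss2, Elovl5 and Scd1), where 9.22% of all tested genes were. After KN046, 0 were called higher (1.6% of all genes) and 5 lower (Hmgcs1, Sc5d, Dhcr7, Acss2 and Scd1; 2.4% of all genes). After the combination, 0 were called higher (1.37%) and 6 lower (Thrsp, Acss2, Elovl5, Scd1, Sc5d and Fads1; 9.74%). The share of the 31 genes called lower was therefore 12.9%, 16.1% and 19.4%. The median log2 fold change of the 31 genes was -0.05 after SB525334 (15 above and 16 below 0), -0.64 after KN046 (1 above and 30 below) and -0.31 after the combination (3 above and 28 below), against medians over all tested genes of 0.0006, -0.026 and 0.0129. Of the 13968 genes, 2643, 3226 and 3093 had an unadjusted p under 0.05 in the 3 comparisons.

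**Figure D2:**
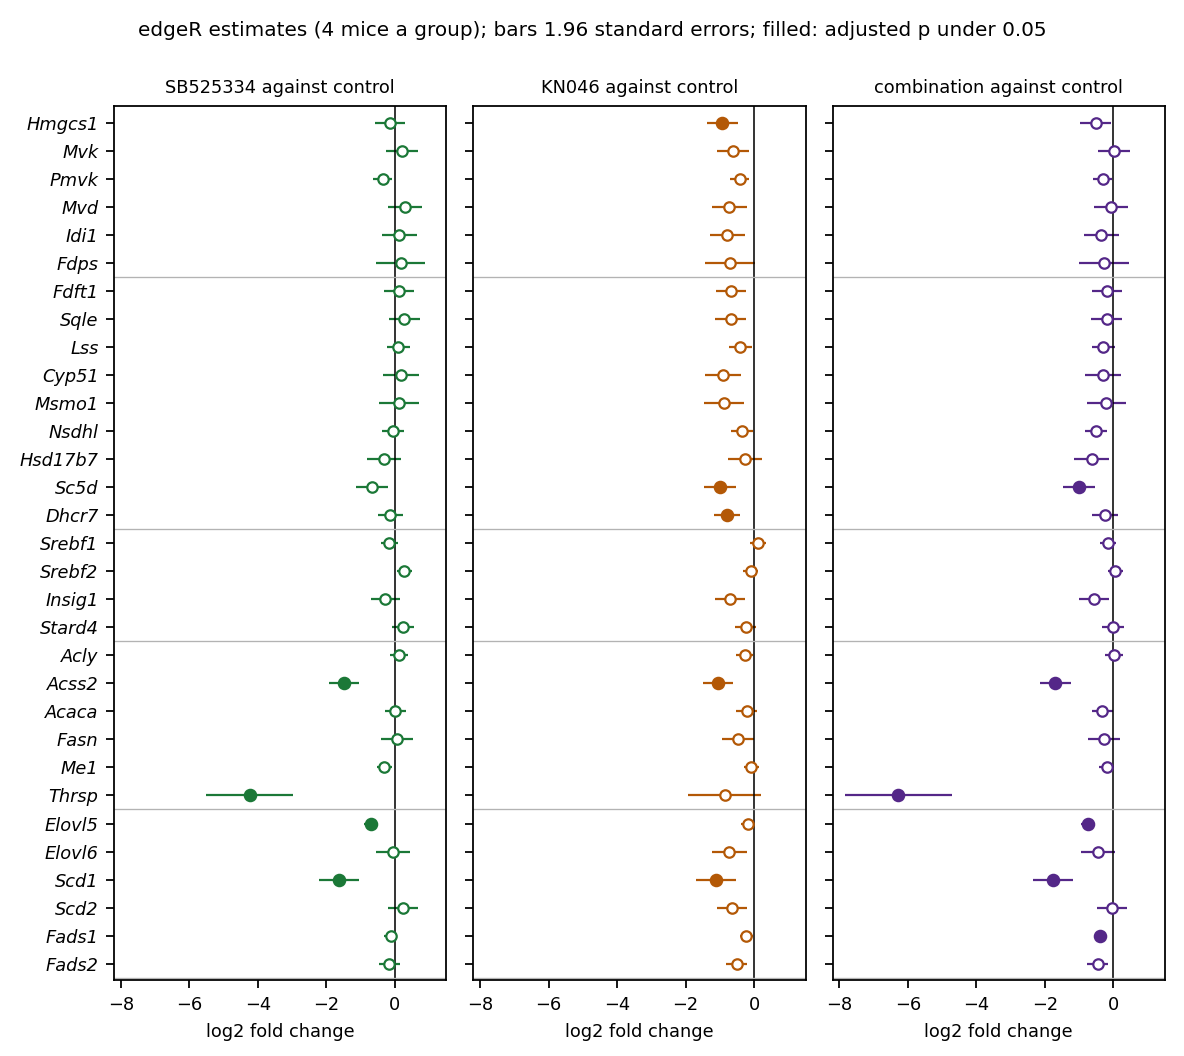
Log2 fold change of each gene against control from edgeR (4 mice a group) for SB525334, KN046 and the combination, with bars of 1.96 standard errors and filled circles for an adjusted p under 0.05. Nearly all circles lie left of 0 after KN046 (30 of 31) and after the combination (28 of 31), whereas 15 of 31 lie right of 0 after SB525334.

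The plot of log2 fold changes shows the cholesterol enzymes between -0.66 and 0.29 after SB525334, with Sc5d and Pmvk below every control mouse, between -0.98 and -0.26 after KN046, and between -1.01 and 0.01 after the combination. The 5 calls after KN046 depended on single mice and on the control pairs. They numbered 0 with the control pairs merged, where the log2 fold changes hardly moved (-0.79 to -1.11) and the adjusted p from edgeR was 0.192 to 0.223. They also numbered 0 without control mouse 1, control mouse 2, KN046 mouse 1 or KN046 mouse 3, 2 without control mouse 3, control mouse 4 or KN046 mouse 4, and 3 without SB525334 mouse 1, which enters through the shared estimate of the spread. In these settings without a mouse, 0.0781% to 1.95% of all genes were called lower. Without KN046 mouse 2 they numbered 14, where 8.34% of all genes tested in that setting were called lower, and DESeq2 called 12, where it called 3.71% of all genes.

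The mevalonate pathway turns acetyl-CoA into farnesyl diphosphate. Hmgcs1 (chr13:120151915-120170470), the cytosolic HMG-CoA synthase at its start, was the 1 gene of the 6 that was called in a comparison with control. Its level was 158, 152, 226 and 225 CPM in control mice 1 to 4, and 179, 134, 169 and 211 CPM after SB525334. After KN046 it was 53.2, 139, 108 and 99.8 CPM, and after the combination 111, 120, 167 and 133 CPM. All 4 KN046 mice lay below all 4 control mice, with mouse 1 far below the other three, while the SB525334 and combination ranges overlapped that of the control group. The mean of Hmgcs1 was 190.3 ± 41.1 CPM (SD, n = 4) in the control group and 99.95 ± 35.5 CPM after KN046, a log2 fold change of -0.93 (SE 0.23, adjusted p from edgeR 0.0376). Without KN046 mouse 1 its log2 fold change was -0.72 (adjusted p from edgeR 0.0948). For SB525334 and the combination, Hmgcs1 had log2 fold changes of -0.14 and -0.52 and was not called.

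The other 5 genes of the group, which were not called, are the mevalonate and phosphomevalonate kinases Mvk and Pmvk, the decarboxylase Mvd, the isopentenyl diphosphate isomerase Idi1, and Fdps, which joins the units to farnesyl diphosphate. After KN046 the 6 log2 fold changes lay between -0.93 and -0.42 (median -0.72). The same 6 had a median of 0.15 after SB525334 and -0.30 after the combination. The counts of Idi1 and Fdps are uncertain, since 94.8% and 76.5% of the 32-base windows of their canonical transcripts occur elsewhere in the genome and the handling of such reads is not given in the sources used here.

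Farnesyl diphosphate is joined to squalene by Fdft1, oxidised by Sqle, closed to lanosterol by Lss, and turned into cholesterol by Cyp51, Msmo1, Nsdhl, Hsd17b7, Sc5d and Dhcr7, among others. Sc5d and Dhcr7, which act late in the pathway on the sterol B ring, were the 2 of these 9 genes called after KN046, and Sc5d was also called after the combination. Sc5d (chr9:42162891-42175605) measured 81.9, 77.9, 115 and 110 CPM in control mice 1 to 4. After SB525334 its level was 65.1, 54.2, 55.6 and 68.9 CPM, after KN046 25.2, 77.3, 37.5 and 54.2 CPM, and after the combination 47.6, 40.8, 52.6 and 49.1 CPM. No treated mouse reached the lowest control mouse, and the 4 combination mice were the most alike. Sc5d had a log2 fold change of -0.98 after KN046 (SE 0.24, adjusted p from edgeR 0.0355) and -1.01 after the combination (SE 0.24, adjusted p from edgeR 0.00669). Its mean fell from 96.1 ± 18.9 CPM to 47.5 ± 4.94 CPM after the combination (SD, n = 4 each). This call was kept in all 8 other analyses and in all 16 that left out a mouse, with a highest adjusted p from edgeR of 0.0378 when the control pairs were merged. After SB525334 the log2 fold change of Sc5d was -0.66 (adjusted p from edgeR 0.107).

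Dhcr7 (chr7:143376740-143402149), which makes cholesterol from 7-dehydrocholesterol, measured 79.1, 84.9, 103 and 101 CPM in the control group and 27.8, 66.4, 63.9 and 54.2 CPM after KN046. Its level was 85.0, 69.5, 87.7 and 93.9 CPM after SB525334 and 70.9, 71.2, 84.8 and 81.5 CPM after the combination. The KN046 mice lay below every mouse of the other groups, which overlapped each other. The log2 fold change of Dhcr7 after KN046 was -0.79 (SE 0.19, adjusted p from edgeR 0.0359), and it was -0.58 without mouse 1 (adjusted p from edgeR 0.0629).

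Of the 7 remaining genes of the squalene and sterol steps, none was called in a comparison with control. After KN046 the 9 log2 fold changes of the group lay between -0.98 and -0.26, with a median of -0.69. After the combination they lay between -1.01 and -0.20 (median -0.29), and after SB525334 between -0.66 and 0.27 (median 0.10). Cyp51 and Msmo1, which take off the methyl groups of lanosterol, had the lowest KN046 values of the group next to Sc5d, -0.90 and -0.89, with adjusted p from edgeR of 0.0669 and 0.0902. Nsdhl, a sterol dehydrogenase, had a log2 fold change of -0.51 after the combination and was not called (adjusted p from edgeR 0.0559). Counting without regard to strand could affect the counts of Fdft1 and Cyp51. Of their exonic bases, 24.8% and 21.1% overlap Ctsb and Akap9 on the opposite strand, and the strand setting is not given in the sources used here.

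Across all 15 cholesterol enzymes 15 of 15 log2 fold changes were below 0 after KN046, with a median of -0.70. The median was -0.49 without KN046 mouse 1, again with 15 of 15 below 0. The control group itself was split. Mice 3 and 4 were above mice 1 and 2 for 13 of the 15 enzymes, with a median ratio of the pair means of 1.46, and up to 1.81 for Msmo1. The share of all genes separated in this way was not computed. The pairs differed widely over all genes, since 64.5% to 65.6% passed the 95% point of the chi-square between mice of different pairs. The median level per mouse, relative to the control mean, was 80.0%, 81.0%, 119% and 122% in control mice 1 to 4, and 31.8%, 80.3%, 74.5% and 58.9% in KN046 mice 1 to 4. It was 109%, 75.6%, 110% and 122% after SB525334, and 65.4%, 76.1%, 92.8% and 93.2% after the combination. KN046 mice 2, 3 and 4 thus lay at or below the lower control pair, and the SB525334 mice ran from below the lowest to the highest control mouse. The sum of 8 macrophage genes was 815 to 1722 CPM after KN046 and 1693 to 1820 CPM in controls, and that of 6 T cell genes 6.43 to 18.4 CPM and 28.5 to 34.3 CPM, and their part in the shift was not tested.

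**Figure D3:**
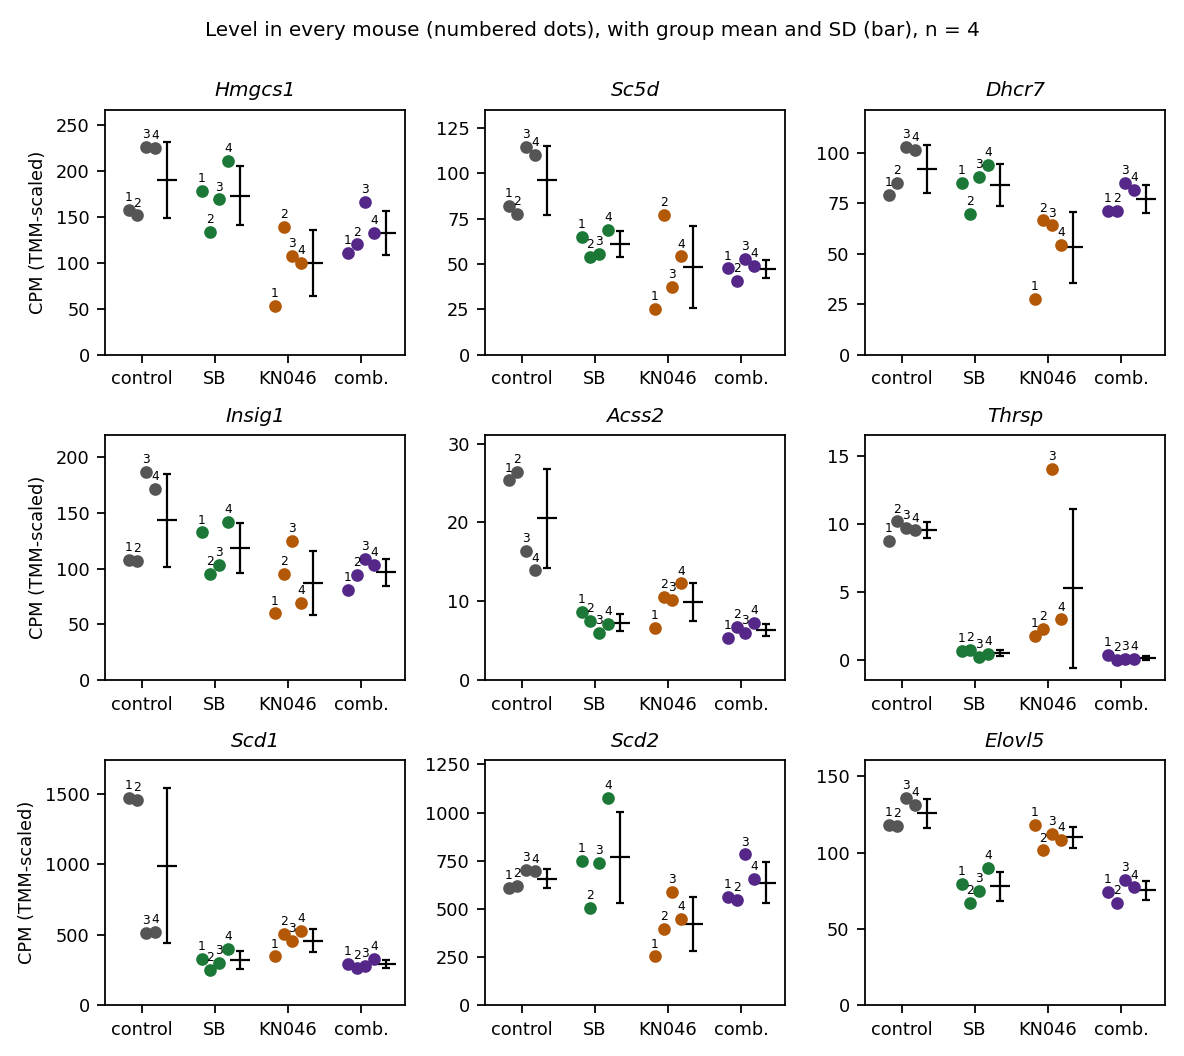
Level of 9 genes in each mouse (CPM, TMM-scaled; numbered dots, 4 groups) with the group mean and SD beside them (n = 4). Sc5d, Acss2, Thrsp, Scd1 and Elovl5 sit below every control mouse after SB525334 and after the combination. KN046 mouse 1 is lowest of its group for all plotted genes except Elovl5.

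None of the 4 regulators and transport genes was called in any comparison with control. Insig1, which retains the sterol-sensing complex in the endoplasmic reticulum and is itself a sterol-responsive gene, had the smallest adjusted p. In the plot of single mice it measured 108, 107, 187 and 172 CPM in the control group, 133, 95.3, 104 and 142 CPM after SB525334, 59.9, 95.05, 125 and 69.6 CPM after KN046, and 81.0, 94.3, 108 and 104 CPM after the combination. The groups overlapped, and control mice 3 and 4 stood above every other mouse. Insig1 had a log2 fold change of -0.72 after KN046 (SE 0.22, adjusted p from edgeR 0.0735) and -0.57 after the combination (adjusted p from edgeR 0.128). Of its canonical transcript, 44.5% of 32-base windows occur elsewhere in the genome, so its count is uncertain.

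The 2 genes for the transcription factors themselves had log2 fold changes of -0.16 to 0.27 in the comparisons with control. Srebf2, whose protein acts mainly on cholesterol genes, averaged 373 ± 15.2 CPM in the control group, 450 ± 56.9 CPM after SB525334, 348 ± 38.9 CPM after KN046 and 389 ± 36.8 CPM after the combination (SD, n = 4). Srebf1, whose protein acts mainly on fatty acid genes, averaged 116 ± 9.09, 104 ± 12.3, 126 ± 23.6 and 105 ± 7.44 CPM in the same order. Their log2 fold changes after KN046 were -0.10 (1.96 SE interval -0.32 to 0.11) for Srebf2 and 0.12 (-0.12 to 0.36) for Srebf1. Stard4, which carries cholesterol between membranes, had log2 fold changes of 0.25, -0.25 and -0.02 after SB525334, KN046 and the combination. RNA levels of these genes do not measure how much of the proteins was processed to the active form.

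Among the 6 genes of fatty acid synthesis, Acss2 (chr2:155355679-155428016) was called lower in all 3 comparisons with control. Acss2 measured 25.3, 26.4, 16.4 and 13.9 CPM in control mice 1 to 4, 8.63, 7.48, 5.98 and 7.06 CPM after SB525334, 6.56, 10.6, 10.1 and 12.3 CPM after KN046, and 5.39, 6.79, 6.00 and 7.21 CPM after the combination. All 12 treated mice lay below the lowest control mouse, although control mice 1 and 2 were well above mice 3 and 4. The log2 fold change of Acss2 was -1.49 after SB525334 (SE 0.22, adjusted p from edgeR 0.000109), -1.05 after KN046 (SE 0.22, adjusted p from edgeR 0.0239) and -1.69 after the combination (SE 0.23, adjusted p from edgeR 2.06e-05). The calls after SB525334 and the combination were kept in all 8 other analyses and all 16 without a mouse. That after KN046 was lost with the control pairs merged (adjusted p from edgeR 0.192).

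Thrsp (chr7:97062139-97066937), a small nuclear protein linked to lipogenesis and expressed mainly in liver and fat, had the largest differences of the 31 genes after SB525334 and after the combination. It measured 8.75, 10.2, 9.69 and 9.51 CPM in the control group, 0.633, 0.717, 0.215 and 0.431 CPM after SB525334, and 0.359, 0, 0.0546 and 0.0471 CPM after the combination, where its counts were 7, 0, 1 and 1. After KN046 it measured 1.76, 2.29, 14.0 and 2.96 CPM. The control mice were close to each other and above all SB525334 and combination mice, while in the KN046 group 3 mice lay below and mouse 3 above the controls. The log2 fold change of Thrsp was -4.24 after SB525334 (SE 0.65, adjusted p from edgeR 0.000134), -6.28 after the combination (SE 0.79, adjusted p from edgeR 1.02e-05) and -0.86 after KN046 (SE 0.54, adjusted p from edgeR 0.351). Without KN046 mouse 3 the value for Thrsp was -2.02 (adjusted p from edgeR 0.051). With 9 counts in the whole combination group, the size of the change there depends on the small count that edgeR adds.

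The 4 remaining genes of fatty acid synthesis were not called in a comparison with control. Fasn averaged 389 ± 10.4 CPM in the control group, 405 ± 25.2 CPM after SB525334, 280 ± 124 CPM after KN046 and 321 ± 55.6 CPM after the combination (SD, n = 4). In the KN046 group Fasn spread from 124 CPM in mouse 1 to 407 CPM in mouse 2. Acaca and Acly had log2 fold changes of -0.22 and -0.28 after KN046 and -0.32 and 0.01 after the combination. Me1, the malic enzyme that supplies NADPH, had -0.31, -0.09 and -0.20 after SB525334, KN046 and the combination. Acaca and Me1 are uncertain as counts, since 71.9% and 36.5% of their 32-base windows occur elsewhere in the genome and 35.0% of the exonic bases of Me1 overlap Rwdd2a on the opposite strand. Of the 4 genes with the sterol regulatory element printed above, Acss2 was called lower after each treatment and Hmgcs1 after KN046, and Fasn and Acaca were not called, so that 1, 2 and 1 of the 4 were called lower where 9.22%, 2.4% and 9.74% of all tested genes were.

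Scd1 and Scd2 lie close to each other on chromosome 19 (chr19:44382894-44399154 and chr19:44281613-44295303) and code for enzymes with the same activity. Scd1 measured 1476, 1459, 513 and 519 CPM in control mice 1 to 4, so the first pair was 2.85 times the second. After SB525334 it measured 329, 248, 300 and 403 CPM, after KN046 347, 507, 455 and 526 CPM, and after the combination 294, 264, 279 and 328 CPM. All SB525334 and combination mice lay below the lowest control mouse, whereas KN046 mouse 4 lay above the lower control pair. Scd1 had a log2 fold change of -1.63 after SB525334 (SE 0.30, adjusted p from edgeR 0.00073), -1.11 after KN046 (SE 0.29, adjusted p from edgeR 0.045) and -1.77 after the combination (SE 0.30, adjusted p from edgeR 0.000269). The calls after SB525334 and the combination were kept in all 8 other analyses and all 16 without a mouse, and the call after KN046 was lost in 10 of the 16 and with the control pairs merged (adjusted p from edgeR 0.196).

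Scd2 was not called in any comparison. It measured 610, 621, 702 and 694 CPM in the control group, 750, 505, 740 and 1078 CPM after SB525334, 253, 398, 589 and 447 CPM after KN046, and 564, 546, 783 and 655 CPM after the combination. Its KN046 mice lay below every control mouse (log2 fold change -0.64, SE 0.22, adjusted p from edgeR 0.106). Its SB525334 and combination mice lay on both sides of the control mice, and the log2 fold changes were 0.23 (1.96 SE interval -0.21 to 0.66) and -0.04 (-0.48 to 0.39).

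**Figure D4:**
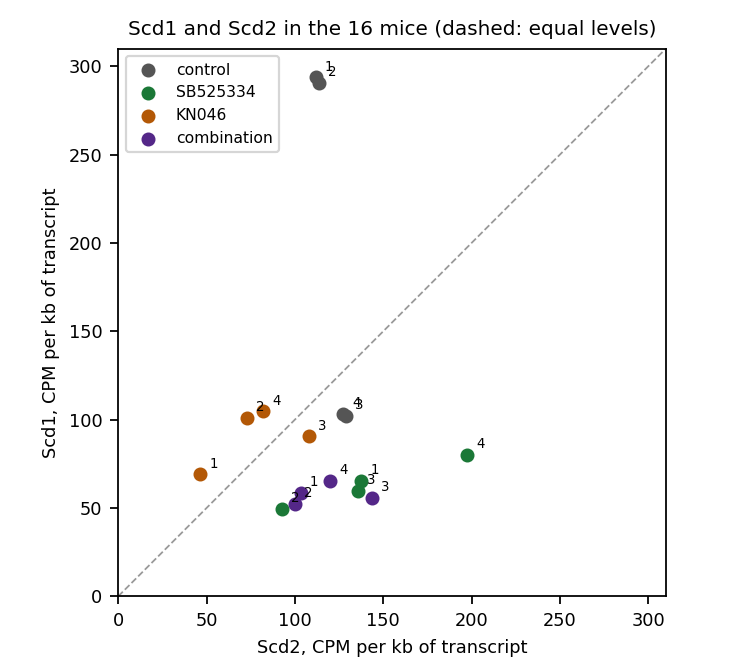
Scd1 (vertical axis) against Scd2 (horizontal axis) in each of the 16 mice, both in CPM per kb of canonical transcript, with a dashed line where they are equal. Control mice 1 and 2 stand far above the line at a ratio of 2.63 and 2.55, and all 8 SB525334 and combination mice lie below it at ratios of 0.387 to 0.567.

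The ratio of Scd1 to Scd2 on the scale per kilobase was 2.63, 2.55, 0.793 and 0.812 in control mice 1 to 4. It was 0.476, 0.533, 0.44 and 0.406 after SB525334, 1.49, 1.38, 0.837 and 1.28 after KN046, and 0.567, 0.524, 0.387 and 0.543 after the combination. The plot of Scd1 against Scd2 thus separates the mice given SB525334 from all mice without it, and within the control group it separates the pairs. The hepatocyte sums of control mice 1 and 2 were 15415 and 15809 CPM and those of mice 3 and 4 were 17958 and 18206 CPM. The same pairs differed in the sums of other cell markers, at 313 and 331 against 162 and 164 CPM for 5 Kupffer cell genes, 219 and 218 against 86.5 and 90.0 CPM for 6 endothelial genes, and 33.9 and 33.8 against 25.1 and 25.4 CPM for 8 fat cell genes. Most of the fat cell sum came from Fabp4 and Lipe, at 22.4 and 6.54 CPM on average in the control group. Adipoq, Plin1, Lep, Retn and Cfd averaged under 1 CPM in every group. The part of Kupffer, endothelial or fat cells in the difference between the pairs was not tested.

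The elongase Elovl5 (chr9:77818113-77891802), which lengthens polyunsaturated fatty acids, varied little within groups, with SDs of 6.39 to 9.69 CPM. It measured 118, 118, 136 and 131 CPM in the control group, 79.5, 67.1, 74.8 and 90.2 CPM after SB525334, 118, 102, 112 and 108 CPM after KN046, and 74.6, 67.0, 82.4 and 77.3 CPM after the combination. The SB525334 and combination mice lay below every control and every KN046 mouse. The log2 fold change of Elovl5 was -0.69 after SB525334 (SE 0.10, adjusted p from edgeR 7.1e-05), -0.74 after the combination (SE 0.10, adjusted p from edgeR 2.17e-05) and -0.19 after KN046 (SE 0.10, adjusted p from edgeR 0.251).

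Fads1 (chr19:10160167-10174241), a desaturase of polyunsaturated fatty acids, was called after the combination only among the comparisons with control. It measured 212, 212, 208 and 199 CPM in the control group and 148, 155, 171 and 161 CPM after the combination, without overlap. After SB525334 it measured 185, 181, 191 and 206 CPM and after KN046 154, 181, 209 and 166 CPM, both overlapping the controls. The log2 fold change of Fads1 after the combination was -0.39 (SE 0.09, adjusted p from edgeR 0.0084), and the call was lost with the control pairs merged (adjusted p from edgeR 0.0693). Against SB525334, the combination differed by -0.26 and was not called (adjusted p from edgeR 0.215). Its neighbour Fads2 and the elongase Elovl6 were not called, with log2 fold changes of -0.51 and -0.72 after KN046 and -0.46 and -0.45 after the combination.

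**Figure D5:**
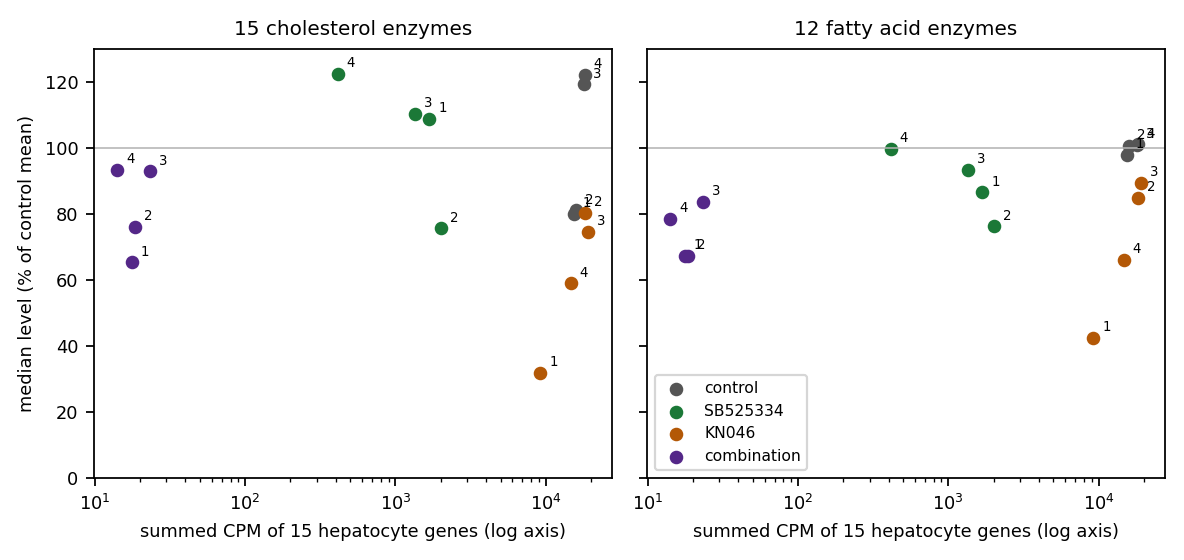
Median level of the 15 cholesterol enzymes (left) and of the 12 fatty acid enzymes (right), as percent of the control mean, against the summed CPM of 15 hepatocyte genes on a log axis, for each of the 16 mice. The hepatocyte sum runs from 14.1 to 19197 CPM, the lowest medians (31.8% and 42.5%) belong to KN046 mouse 1 at 9214 CPM, and the combination mice keep 65.4% to 93.2% of the cholesterol enzyme level.

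The plot of median levels against the hepatocyte sum sets both measures side by side. With the hepatocyte genes at a median of 0.11% of their control level in the combination group and 8.96% after SB525334, the median cholesterol enzyme was at 81.7% and 108%. Within the KN046 group, where the hepatocyte genes were at a median of 83.9%, mouse 1 had both the lowest hepatocyte sum and the lowest cholesterol and fatty acid enzymes. Acss2, Thrsp, Scd1 and Elovl5 were called lower in the same comparisons as all 15 hepatocyte genes, and so were Sc5d and Fads1 after the combination, and the part of hepatocyte RNA in these results was not tested. Acss2 and Scd1 were also called lower after KN046, where 0 of the 15 hepatocyte genes were. Both calls were lost with the control pairs merged (adjusted p from edgeR 0.192 and 0.197) and without KN046 mouse 1 (0.0729 and 0.151). The part of hepatocyte RNA in them was not tested. Of 8 fat cell genes, Adipoq, Plin1, Lep, Retn and Cfd averaged under 1 CPM in every group, and most of the sum came from Fabp4 and Lipe. Cidec averaged 0.545 CPM in the control group, 0.0845 CPM after SB525334, 5.14 CPM after KN046 and 0 CPM after the combination. The sum of the 8 was low in every mouse, at 25.1 to 33.9 CPM in the control group. It was 13.2 to 20.9 CPM after SB525334, 30.4 to 55.8 CPM after KN046 and 7.75 to 10.4 CPM after the combination. Kupffer cell markers (5 genes) summed to 162 to 331, 9.56 to 24.3, 52.6 to 392 and 1.47 to 12.4 CPM in the same order, and endothelial markers (6 genes) to 86.5 to 219, 35.7 to 79.0, 157 to 207 and 81.7 to 103 CPM. The median endothelial gene was at 39.8% of control after SB525334, 103% after KN046 and 48.5% after the combination, and the part of these cells was not tested either.

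Adding SB525334 to KN046 was read from the combination against KN046. Of the 31 genes, 0 were called higher, where 9.89% of all tested genes were, and 3 were called lower (Thrsp, Elovl5 and Acss2), where 14.5% were. Their log2 differences were -5.42 (SE 0.80, adjusted p from edgeR 6.14e-05), -0.55 (SE 0.10, adjusted p from edgeR 0.000651) and -0.64 (SE 0.23, adjusted p from edgeR 0.049). The call of Acss2 was kept in 2 of the 8 other analyses and in 4 of the 16 without a mouse. The 15 cholesterol enzymes had a median log2 difference of 0.42, with 12 above 0. The largest were those of Msmo1 at 0.69 and Mvd at 0.65, and the smallest adjusted p was that of Dhcr7, 0.0515 from edgeR, at 0.54 (1.96 SE interval 0.16 to 0.92). DESeq2 called 3 of the 31 genes higher here, where it called 9.09% of all genes. Of the 31, edgeR called 6 without combination mouse 1, 4 without KN046 mouse 2 and 3 without KN046 mouse 3, where 13.4%, 11.1% and 7.88% of all genes were called higher.

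Adding KN046 to SB525334 was read from the combination against SB525334. No gene of the 31 was called higher (0.544% of all genes) or lower (3.03%) by edgeR, with 28 of 31 log2 differences below 0 and a median of -0.32. The interaction, which is the SB525334 effect in the presence of KN046 minus that in its absence, was called higher or lower for 0 of the 31 genes (1.73% and 2.55% of all genes). The interactions ran from -1.18 for Thrsp (SE 1.06) to 0.98 for Scd1 (SE 0.41, 1.96 SE interval 0.17 to 1.78), and the smallest adjusted p from edgeR was 0.162, for Acss2 at 0.86 (SE 0.32). All 15 hepatocyte genes were called lower in the combination against either agent alone and in the interaction.

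Beyond the 31 genes, 41 further genes of these pathways were listed, and 40 were tested, Elovl3 being too low. The counts below stand beside shares over all tested genes called lower of 9.22% after SB525334, 2.4% after KN046 and 9.74% after the combination, and called higher of 0.394%, 1.6% and 1.37%. Of 8 other sterol synthesis genes, 1 was called lower after SB525334 (Tm7sf2, a sterol reductase, log2 fold change -0.88), 3 after KN046 and 2 after the combination (Tm7sf2 at -1.23 was the larger). Of 7 genes of SREBP processing and sterol uptake, Insig2 was called lower after SB525334 (-0.40) and higher after KN046 (0.56, adjusted p from edgeR 0.0102), and 0 were called after the combination. Insig2 was the 1 gene of the members and these lists that was called higher in a comparison with control. Over all tested genes, edgeR called 335 lower and 224 higher after KN046 (663 and 587 by DESeq2), and 0 in either direction with the control pairs merged.

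Of 11 genes of LXR action and of sterol efflux or esterification, 5 were called lower after SB525334, 0 after KN046 and 6 after the combination. The largest called difference after SB525334 was that of the hepatobiliary sterol exporter Abcg5 (-3.65). After the combination, Abcg5 had 1 count in the whole group, and its partner Abcg8 had 0 counts in all 4 mice against 3.55 to 4.64 CPM in the control mice, at least 25.6-fold lower with the floor set at 3 counts per library, so these 2 genes could not be ranked. Of 14 tested genes of other fatty acid and triglyceride synthesis, 4 were called lower after SB525334, 1 after KN046 (Elovl1, which elongates very long chains, -0.61) and 4 after the combination. Mlxipl, the carbohydrate-responsive factor ChREBP, had the largest called differences after SB525334 and after the combination, from 15.3 to 31.1 CPM in the control group to 0.302 to 2.11 CPM after SB525334 (log2 fold change -4.24), and to 2 counts in the whole combination group. Abcg5, Abcg8 and Mlxipl moved with the hepatocyte genes, whose part in these calls was not tested.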

How the data were processed

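Total RNA of liver metastases was sequenced as mRNA libraries. Per the submitters' processing notes, the authors trimmed reads with cutadapt 2.7, aligned them with HISAT2 2.2.1 to GRCm39 and counted them per gene with HTSeq 2.0.4. The authors deposited raw counts, which were used here, and counts normalized with DESeq2 1.38.3, which were not used. Strand and multiple-alignment settings are not given in the sources used here.

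Identifiers were matched to GENCODE M39 (21770 of 21959). These counts went into edgeR 4.0.16 (R 4.3.3). Genes passed filterByExpr at a minimum count of 10, libraries were scaled by TMM, and 1 quasi-likelihood model was fitted over all 16 mice, with Benjamini-Hochberg adjustment over 13968 genes and a threshold of 0.05. The biological coefficient of variation was 20.1%. The standard error of a log2 fold change was derived as its absolute value divided by the square root of edgeR's F statistic. The members and lists were chosen with earlier results of these data known. Full values are given for up to 4 genes a role group, called against control in order of adjusted p, or for the one with the smallest adjusted p where none was called, and wider lists by counts and the called gene with the largest difference, of which 1 is not reported here. Scd2, Fasn, Srebf1 and Srebf2 were added after their values were seen, as were further values of uncalled genes. The alternatives were DESeq2 1.42.0, other scalings and filters, the mice of a comparison alone, the replicate number as a block, the study's thresholds, merged control pairs and each mouse left out. The pipeline was tested on simulated data.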

Additional observations from a re-analysis of the deposited data

Results flagged for a closer look

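Within each group of 4 mice, a value was marked where its gap to the nearest other mouse exceeded Dixon's critical value of 0.829 of the group's range. Of 124 groups of the 31 genes, 5 were marked, where chance gives about 1 in 20 (6.2). Combination mouse 1 was low for Mvd (38.0 CPM, the others 55.8 to 58.9 CPM) and for Msmo1 (77.5 CPM, the others 125 to 135 CPM), and was high for Thrsp (0.359 CPM, the others 0 to 0.0546 CPM). KN046 mouse 3 was high for Thrsp (14.0 CPM, the others 1.76 to 2.96 CPM). KN046 mouse 1 was low for Me1 (34.6 CPM, the others 38.0 to 38.7 CPM).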

How the results depend on the processing

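No gene of the 31 changed direction with a call under any alternative. Of the calls lower, those with SB525334 numbered 4 (3 by DESeq2, which gave Thrsp no adjusted p, 3 by the study's thresholds, 5 when only the mice compared were fitted, 4 to 5 without a mouse). Of all genes, 8.24%, 9.77% and 10.6% were called lower in the first 3 of these settings. The calls lower with the combination numbered 6 (4 by the study's thresholds, 5 with merged control pairs, 8 when only the mice compared were fitted, 6 to 8 without a mouse). Of all genes, 9.68%, 8.12% and 9.83% were called lower in the first 3 of these settings. With KN046 they numbered 5, against 12 by DESeq2, 2 with total count scaling, 0 when only the mice compared were fitted, 0 with the control pairs merged, 2 by the study's thresholds (unadjusted p under 0.05 and a fold over 2) and 0 to 14 without a mouse. The share of all genes called lower with KN046 also fell with total count scaling and when only the mice compared were fitted. With the control pairs merged, 0 of all genes were called. That share rose by DESeq2 and by the study's thresholds. For the combination against KN046, 3 were called lower (1 by the study's thresholds, where 9.6% of all genes were, and 2 to 3 without a mouse). There 0 were called higher (3 by DESeq2 and 1 with total count scaling, where 9.09% and 11.5% of all genes were, and 0 to 6 without a mouse). Against SB525334, the combination had 0 lower (1 by the study's thresholds, where 4.4% of all genes were, and 0 to 1 without a mouse).

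The replicate numbers are shared between groups by label only: of 24 same-numbered pairs, 7 had a correlation of their deviations over 0.1 (range -0.37 to 0.407). With the replicate number as a block, 6 of the 31 genes were called higher in the combination against KN046, where 10.9% of all genes were. In that setting 7 were called lower with KN046 (2.53% of all genes) and 8 lower with the combination (9.77%).

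Depth limits Thrsp with the combination, at 9 counts in the group. Separately, DESeq2 gave Thrsp no adjusted p, for a reason that was not examined. The causes of the other changes were not tested. All medians over all genes stayed within 0.1 between scalings.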
